A study of Mus musculus with 16 samples.

Results

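The genes described here encode 10 neuropeptide precursors of the cerebral cortex: Sst, Cort, Npy, Vip, Cck, Crh, Tac2, Penk, Tac1 and Pdyn. They were chosen by name as the rows of the deposited table whose gene symbol is one of these names, and all 10 were found among the 23284 genes of the table. All 10 passed the filter on low values that left 13978 genes for testing. The RNA was prepared from prefrontal cortex, with 4 mice in each of 4 genotypes, all 2 to 3 months old and of both sexes. The study asked which cortical transcripts differ between mouse lines with raised β-catenin in excitatory neurons and the other genotypes.

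In APC cKO mice both Apc alleles were floxed, and loss of the Apc protein, part of the complex that marks β-catenin for destruction, raises β-catenin. In Bcat cOE mice 1 Ctnnb1 allele carried a floxed exon 3, and its removal gives a β-catenin that escapes destruction. In APC/Bcat cKO mice both Apc and both Ctnnb1 alleles were floxed. The same CamKIIα-Cre-93 transgene, active mainly in excitatory neurons of the forebrain, deleted the floxed parts in all 3 lines. Control mice were Cre-negative littermates pooled from all the lines, and which floxed alleles each of them carried is not given in the sources used here. The recombinase was therefore aimed at a class of cells that, for most of these peptides, is not the main source of the mRNA in cortex, and the libraries are of bulk tissue. In bulk RNA, fewer cells of a type and less RNA per cell cannot be told apart.

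Neuropeptides are made as longer precursors, cut by convertases in the secretory pathway, stored in dense-core vesicles and released to act on G protein-coupled receptors. In cortex most of them mark classes of GABAergic interneuron: Sst and Cort in interneurons that target dendrites, Vip and Tac2 in interneurons that inhibit other interneurons, Npy in neurogliaform and some Sst cells, and Cck in basket cells as well as in many excitatory neurons. Penk, Tac1 and Pdyn are present in some cortical neurons but are best known as the peptides of the projection neurons of the striatum, which borders the frontal cortex from below. Transcription of several of these genes is known to respond to cAMP and neuronal activity through the cAMP response element, and β-catenin acts on transcription through TCF/LEF proteins.

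The stretches that hold these elements are shown because they are the DNA through which the peptide genes could be reached by either route. RefSeq promoter windows on GRCm38.p6 (mm10) matched 8 of the 10 genes, in 9 windows, and the 250 bases before the start were searched on both strands for TGACGTCA (the cAMP response element), TGACG or CGTCA (its core, which lies inside the full element) and ATCAAAG or CTTTGAT (a TCF/LEF site). Each line gives 30 bases of the gene's strand, 5′ to 3′, with the matched letters in capitals.
Sst: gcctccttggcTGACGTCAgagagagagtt
Cort: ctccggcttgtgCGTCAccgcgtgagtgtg
Vip: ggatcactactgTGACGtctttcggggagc
Cck: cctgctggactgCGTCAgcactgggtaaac
Tac1: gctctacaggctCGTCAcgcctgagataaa
Tac2: tggaggtgagaATCAAAGcctgcttcatat
The Sst stretch lies at chr16:23890874-23890903 on the minus strand, with the full element at positions -48 to -41 from the RefSeq start. The Cort stretch is chr4:149126764-149126793 (minus strand, match at -18 to -14), and the Vip stretch is chr10:5639127-5639156 (plus strand, -79 to -75). The Cck stretch is chr9:121495724-121495753 (minus strand, -47 to -43), and the Tac1 stretch is chr6:7555006-7555035 (plus strand, -43 to -39). Tac1 has a second match of the core at -197 to -193, in chr6:7554852-7554881, whose letters are not shown. The Tac2 stretch is chr10:127724386-127724415 (plus strand, -81 to -75). In GENCODE the Sst and Tac1 stretches also overlap an exon of 1 transcript that starts farther upstream, Sst-201 and Tac1-205. The full element was found in 1 of the 8 genes and in 1.55% of the 32851 windows of all genes. The core was found in 5 of the 8 genes and in 17.8% of all windows, and the TCF/LEF letters in 1 of the 8 genes and in 3.21% of all windows. A match is a run of letters and not a measured binding site.

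Deposited values were turned back into FPKM, a level scaled to the length of the transcript and to the reads of the library, so that levels of different genes can be set side by side. In Control mice the mean levels ran from 630.3 ± 50.7 FPKM (SD, n = 4) for Cck, rank 72 of all 23284 genes, to 4.20 ± 0.757 FPKM (SD, n = 4) for Crh, rank 9892. The order was Cck, Sst, Npy, Penk, Vip, Tac1, Tac2, Pdyn, Cort and Crh. Neighbours whose 4 Control libraries did not overlap were Cck and Sst, Npy and Penk, and Cort and Crh. All other neighbours in the order overlapped between mice. Within each Control mouse Sst was still above Npy (337 and 222, 447 and 318, 302 and 262, 312 and 204 FPKM). For the other overlapping neighbours the order changed from mouse to mouse, so their rank among these mice is not fixed by the data. The 10 genes together summed to 1240 to 1634 FPKM in Control libraries and to 1078 to 1777 FPKM over all 16.

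The spread between mice of the same genotype differed widely among the genes. The pooled SD within genotypes on the log2 scale was 1.05 for Tac1, 0.75 for Penk and 0.64 for Pdyn, against a median of 0.15 over all genes tested. Cort (0.42) and Sst (0.38) came next. Crh (0.24), Tac2 (0.24), Npy (0.17), Vip (0.14) and Cck (0.11) were close to the middle of all genes or not far above it. For Tac1, 98.8% of the genes tested had a smaller spread, and for Cck 32.1%.

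**Figure D1:**
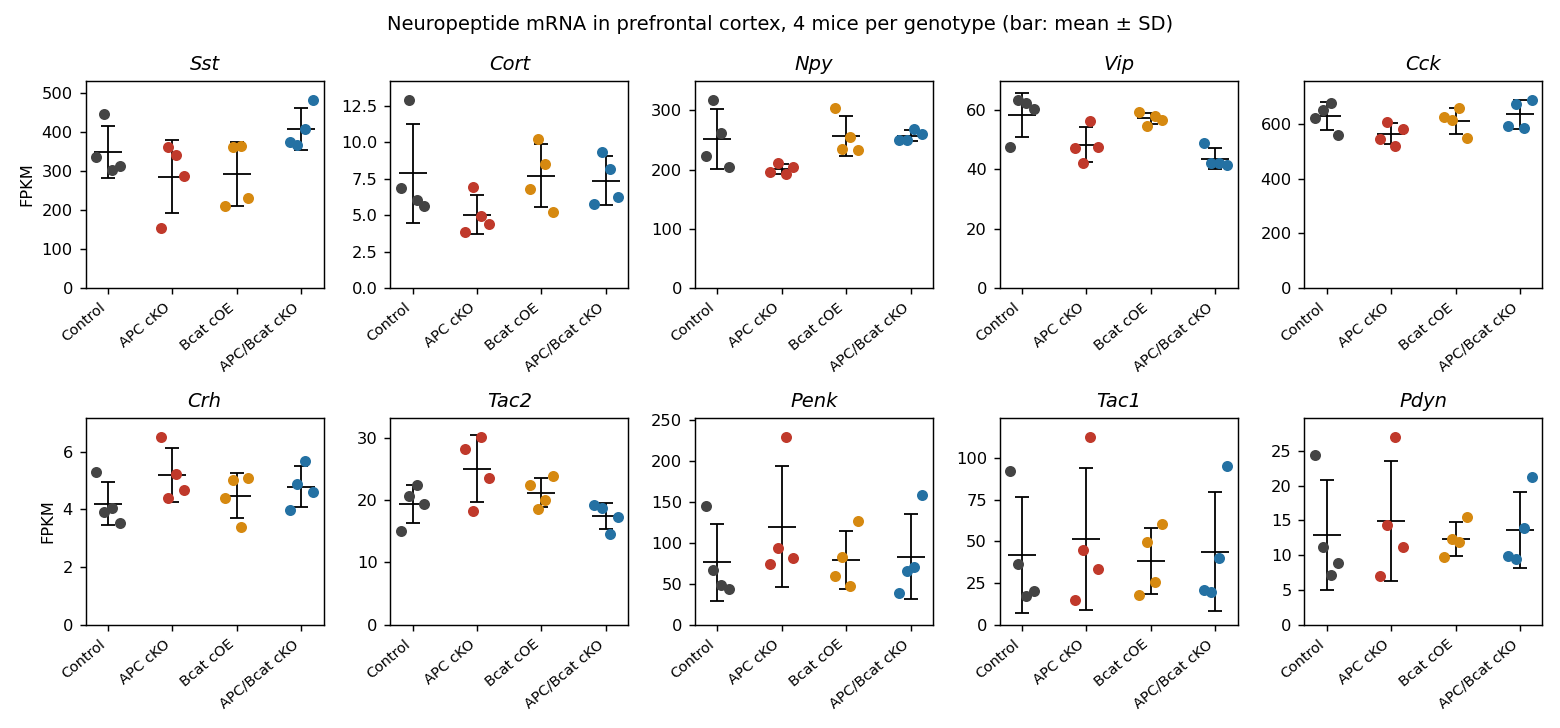
FPKM (vertical axes, from 0) of the 10 neuropeptide genes in each of the 16 mice, by genotype on the horizontal axis. Points are libraries, and black bars are the mean ± SD of 4. Penk, Tac1 and Pdyn each have 1 library far above the others in Control, APC cKO and APC/Bcat cKO mice, while the APC cKO group of Npy, at 192 to 211 FPKM, is narrow.

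Before the genotypes were compared, the libraries were checked against their labels. Apc was at 40.8 to 50.1 FPKM in Control and 38.8 to 49.5 FPKM in Bcat cOE libraries, and at 7.85 to 17.1 FPKM in APC cKO and 6.80 to 12.2 FPKM in APC/Bcat cKO libraries, so all 16 matched their labels for this gene. Apc does not separate Control from Bcat cOE libraries or APC cKO from APC/Bcat cKO libraries. Ctnnb1 was between 151 and 182 FPKM in all 16 libraries, in which deletion of a few exons need not lower the total. It was at 157.3 to 182 FPKM in APC cKO and 150.9 to 156.7 FPKM in APC/Bcat cKO libraries. The log2 difference of these lines was 0.14 ± 0.046 (limma adjusted p = 0.295), and 5.49% of all genes were apart in this comparison. The summed FPKM of 10 markers of striatal projection neurons, among them Drd2 and Adora2a, ran from 79.3 to 328 in Control, 87.4 to 431 in APC cKO, 71.9 to 225 in Bcat cOE and 89.2 to 298 in APC/Bcat cKO libraries. The highest were Control replicate 1, APC cKO replicate 3, Bcat cOE replicate 4 and APC/Bcat cKO replicate 4. Over all 16 libraries the lowest values were 0.354 FPKM of Drd2 and 0.814 FPKM of Adora2a, both in Control replicate 4, and Six3 was listed at 0 in its lowest library. The summed FPKM of the forebrain GABAergic transcription factor genes Dlx1, Dlx2, Dlx5 and Dlx6 ran from 14.0 to 56.7 and was highest within each genotype in Control replicate 3, APC cKO replicate 1, Bcat cOE replicate 1 and APC/Bcat cKO replicate 2. Control replicate 1 and APC cKO replicate 1 were female and the other 14 libraries male. Results that rest on these libraries are also given without them.

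No neuropeptide gene passed the test against Control in any line. With limma on log2(FPKM + 0.1) and a Benjamini-Hochberg adjusted p under 0.05 over all genes tested, 0 of the 10 were called in APC cKO, where 0.0429% of all genes were called. The same count was 0 in Bcat cOE (0.0143% of all genes) and 0 in APC/Bcat cKO mice (0.207% of all genes). At an unadjusted p under 0.05 the counts were 4 in APC cKO (10% of all genes), 0 in Bcat cOE (5.07%) and 1 in APC/Bcat cKO mice (14.2%). The 4 genes in APC cKO mice were Vip, Npy and Cort, with lower values than Control, and Tac2, with higher values, and the 1 gene in APC/Bcat cKO mice was Vip. None of the 10 had 4 mutant values all above or all below the 4 Control values, which was the case for 5.47% of all genes in APC cKO, 3.08% in Bcat cOE and 5.21% in APC/Bcat cKO mice. The median log2 fold change of the 10 genes was 0.022 in APC cKO, 0.049 in Bcat cOE and 0.074 in APC/Bcat cKO mice, beside -0.0042, -0.0036 and 0.0031 over all genes tested. The 3 comparisons share the same 4 Control libraries.

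Between the mutant lines, 0 of the 10 genes were called for APC cKO against APC/Bcat cKO (0.215% of all genes), Bcat cOE against APC/Bcat cKO (0.229%) or APC cKO against Bcat cOE (0.0429%). At an unadjusted p under 0.05 the counts were 4 (Cck, Sst, Npy and Tac2; 10.3% of all genes), 2 (Sst and Vip; 11.9%) and 3 (Npy, Vip and Cort; 7.57%). Groups of 4 that did not overlap were found for Sst and Npy in APC cKO against APC/Bcat cKO (5.49% of all genes), for Sst and Vip in Bcat cOE against APC/Bcat cKO (6.30%) and for Npy in APC cKO against Bcat cOE (5.20%). The mean of both lines with raised β-catenin, APC cKO and Bcat cOE, was also set against the mean of APC/Bcat cKO and Control. In this contrast 0 genes were called (0.0572% of all genes), and 2, Sst and Tac2, had an unadjusted p under 0.05 (8.84% of all genes). For any difference among the 4 genotypes, 0 were called (0.250% of all genes), and 3, Npy, Vip and Tac2, had an unadjusted p under 0.05 (12% of all genes).

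**Figure D2:**
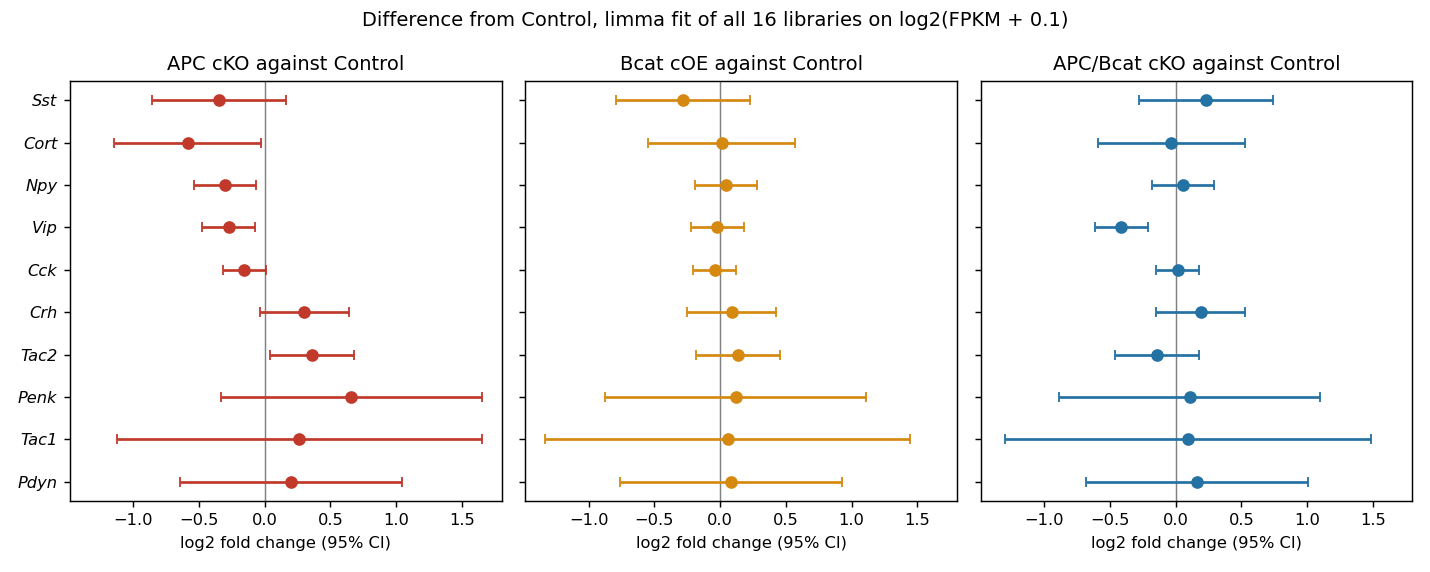
Log2 fold change against Control (horizontal axis) of each neuropeptide gene (vertical axis) in APC cKO, Bcat cOE and APC/Bcat cKO mice, from the limma fit of all 16 libraries. Points are estimates and bars 95% confidence intervals. The intervals of Penk, Tac1 and Pdyn are the widest, and that of Vip in APC/Bcat cKO mice, from -0.62 to -0.21, lies below 0, as do those of Vip, Npy and Cort in APC cKO mice, where that of Tac2 lies above 0.

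Vip encodes vasoactive intestinal peptide, the mark of interneurons whose main targets are other interneurons. It lies on chromosome 10 from 5639218 to 5647617 on the plus strand, with 7 exons. Vip was at 47.4, 63.4, 62.3 and 60.4 FPKM in Control mice and at 48.9, 42.1, 42.0 and 41.3 FPKM in APC/Bcat cKO mice. Every APC/Bcat cKO library was below 3 of the 4 Control libraries, and the fourth, Control replicate 1, lay among them. The log2 fold change was -0.42 ± 0.095 (standard error), 0.75-fold, with a limma unadjusted p of 0.00050 and an adjusted p of 0.113. Control replicate 1 had the most striatal marker RNA of the Control libraries and is 1 of the 2 females. Without it the log2 fold change was -0.51 (limma adjusted p = 0.00926), and with sex as a covariate it was -0.47 (adjusted p = 0.0410).

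APC cKO mice had 47.3, 41.9, 56.3 and 47.6 FPKM of Vip. All 4 were below the Control mean of 58.4 ± 7.40 FPKM (SD, n = 4), but they overlapped Control replicate 1. Against Control the log2 fold change was -0.27 ± 0.095 (limma adjusted p = 0.365). Without the library highest in striatal markers in each genotype it was -0.45 (limma adjusted p = 0.0291), and in APC/Bcat cKO mice -0.49 (adjusted p = 0.0156). Vip thus passed the threshold in both lines with deleted Apc when those 4 libraries were left out. They held the lowest Control value (47.4 FPKM), the highest APC cKO value (56.3 FPKM) and the lowest APC/Bcat cKO value (41.3 FPKM). Without the library highest in Dlx genes in each genotype Vip was at -0.23 in APC cKO and -0.37 in APC/Bcat cKO mice (limma adjusted p = 0.806 and 0.536). The part that striatal markers played in the Vip difference was not tested. Bcat cOE mice had 59.1, 54.7, 58.1 and 56.7 FPKM, in the range of the Control mice and above all 4 APC/Bcat cKO libraries. For Bcat cOE the log2 fold change was 0.39 ± 0.095 against APC/Bcat cKO (limma adjusted p = 0.117), and against Control -0.022 with a 95% confidence interval from -0.22 to 0.18.

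Tac2 encodes the precursor of neurokinin B, and in mouse cortex it is carried by a part of the Vip interneurons. It lies on chromosome 10 from 127724478 to 127731768 on the plus strand, downstream of the stretch with the TCF/LEF letters shown above. Tac2 was at 15.1, 20.6, 22.4 and 19.3 FPKM in Control and at 28.2, 18.2, 30.2 and 23.5 FPKM in APC cKO mice. Of the APC cKO libraries 3 were above all Control libraries and 1 was not. The log2 fold change was 0.36 ± 0.15 against Control (limma adjusted p = 0.441) and 0.50 ± 0.15 against APC/Bcat cKO (adjusted p = 0.255), whose mice had 19.3, 18.7, 14.5 and 17.2 FPKM. Without the libraries highest in striatal markers the value against Control was 0.15. The Bcat cOE libraries had 22.4, 18.5, 19.97 and 23.8 FPKM, with a log2 fold change of 0.14 against Control. In the contrast of both lines with raised β-catenin against the other groups the log2 difference was 0.32 ± 0.11 (limma adjusted p = 0.394). Vip and Tac2 differed in sign in APC cKO mice, although within genotypes they moved together across mice (Pearson r = 0.805 after removal of genotype means). Over all 16 libraries without that removal r was 0.438 and rho 0.524 (permutation p adjusted over 125 pairs = 0.24 and 0.15).

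Sst encodes somatostatin, the peptide of a main class of dendrite-targeting interneurons, and lies on chromosome 16 from 23889573 to 23890958 on the minus strand. It was at 337, 447, 302 and 312 FPKM in Control mice. APC cKO mice had 153, 360.3, 339.7 and 288 FPKM, and Bcat cOE mice had 211, 362, 364 and 232 FPKM. APC/Bcat cKO mice had 373, 367, 408 and 482 FPKM. All 4 APC/Bcat cKO libraries lay above all 8 libraries of the lines with raised β-catenin, while Control libraries overlapped with every line. Of all genes, 5.49% were apart from APC/Bcat cKO in APC cKO and 6.30% in Bcat cOE mice, and the share apart in both was not counted. The Sst log2 fold change against Control was -0.35 ± 0.24 in APC cKO (limma adjusted p = 0.648), -0.28 ± 0.24 in Bcat cOE (adjusted p = 0.950) and 0.23 ± 0.24 in APC/Bcat cKO mice (adjusted p = 0.678). Without APC cKO replicate 1 the APC cKO value was -0.073, and without Control replicate 2 it was -0.22. The Bcat cOE value was -0.14 without Bcat cOE replicate 1, -0.16 without Control replicate 2 and -0.19 without Bcat cOE replicate 4, and in APC/Bcat cKO mice it was 0.36 without Control replicate 2 and 0.15 without APC/Bcat cKO replicate 4. Both lines with raised β-catenin against the other groups gave -0.43 ± 0.17 (limma adjusted p = 0.475).

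The 2 libraries lowest in Sst were also set apart by other genes of GABAergic neurons. APC cKO replicate 1, with 153 FPKM of Sst, and Bcat cOE replicate 1, with 211 FPKM, had the highest summed Dlx level of all 16 libraries (56.7 and 46.4 FPKM), the highest Gad1 (321 and 318 FPKM, against 157 to 246 FPKM in the others) and the lowest Lhx6 (2.07 and 3.44 FPKM). The library next lowest in Sst, Bcat cOE replicate 4 at 232 FPKM, was not set apart by the Dlx genes (28.96 FPKM) or Gad1 (188 FPKM). Its Lhx6, at 3.93 FPKM, was also low, beside a mean of 4.93 FPKM over the 16 libraries. Gad1 encodes the enzyme that makes GABA, and Lhx6 the transcription factor of interneurons that arise in the medial ganglionic eminence, which include the Sst and parvalbumin classes. Over the 16 libraries Sst had a Pearson r of 0.908 with Lhx6 (Spearman rho = 0.782, adjusted permutation p = 0.00028 and 0.0077), 0.935 after removal of genotype means and 0.727 without the 2 libraries farthest from the median of Lhx6. With the mean of the Dlx genes r was -0.723 (rho = -0.606, adjusted permutation p = 0.017 and 0.080) and -0.679 within genotypes. It was -0.604 without the 2 libraries farthest from the Dlx median, APC cKO replicate 1 and APC/Bcat cKO replicate 1. Bcat cOE replicate 1 stayed in that value, so it does not show the relation without both libraries lowest in Sst. With Gad1 r was -0.730 (rho = -0.615, adjusted permutation p = 0.024 and 0.072). It fell to -0.295 without the 2 libraries farthest for Gad1, APC cKO replicate 1 and Bcat cOE replicate 1, so that relation rests on them. These pairs share libraries, and they were chosen with earlier results of these data known. The library highest in Dlx genes in each genotype was then left out. The log2 fold change of Sst against Control was -0.14 in APC cKO and -0.21 in Bcat cOE mice. Against APC/Bcat cKO it was -0.35 and -0.42 (limma adjusted p = 0.801 and 0.738). With all 16 libraries the values against APC/Bcat cKO were -0.58 and -0.52 (limma adjusted p = 0.439 and 0.415). In the fit without those libraries 0 of the 10 neuropeptide genes were called in any comparison. The part that these genes played in the Sst values was not tested.

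**Figure D3:**
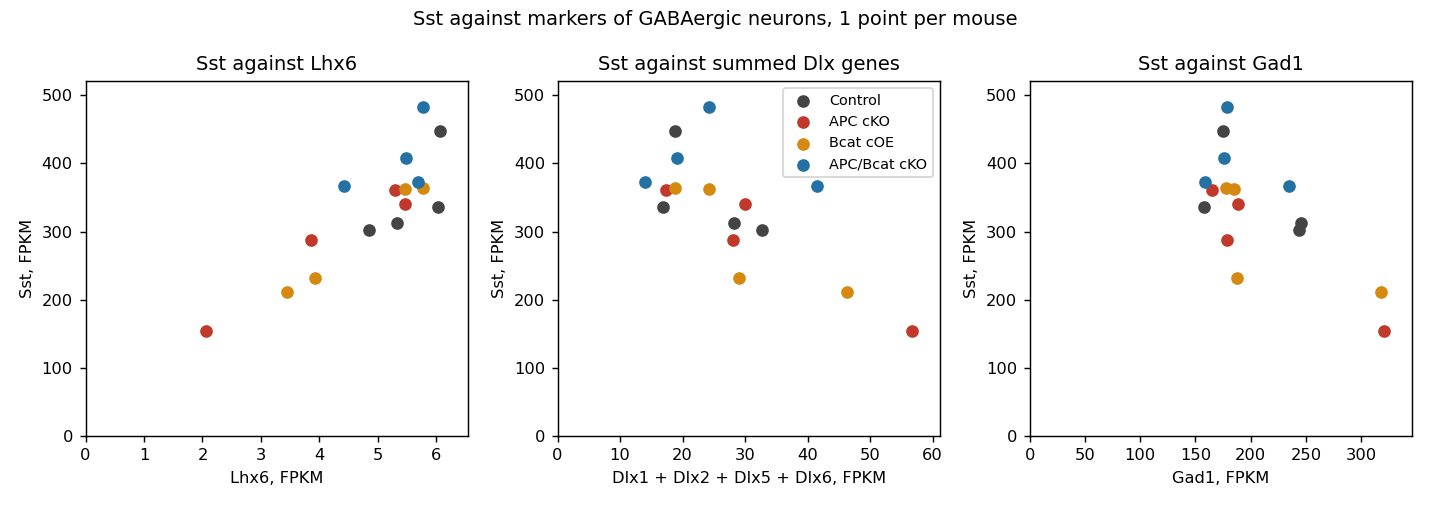
Sst (vertical axes, FPKM) against Lhx6, the summed Dlx genes and Gad1 (horizontal axes, FPKM), with 1 point per mouse coloured by genotype. The 2 libraries at the lower right of the Dlx and Gad1 panels are APC cKO replicate 1 and Bcat cOE replicate 1, which also lie at the lower left of the Lhx6 panel.

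Cort encodes cortistatin, a peptide related to somatostatin that acts on the same receptors, and lies on chromosome 4 from 149125034 to 149126763 on the minus strand. It was at 6.86, 12.9, 6.01 and 5.66 FPKM in Control and at 3.84, 6.97, 4.95 and 4.41 FPKM in APC cKO mice. Of the APC cKO libraries 3 were below every Control library. Against Control the log2 fold change was -0.58 ± 0.26 (limma adjusted p = 0.471), and it was -0.32 in the fit without Control replicate 2, whose 12.9 FPKM was the highest value of all. In Bcat cOE mice the values were 6.82, 10.2, 8.55 and 5.23 FPKM and in APC/Bcat cKO mice 5.75, 9.33, 8.19 and 6.26 FPKM, with log2 fold changes of 0.010 and -0.034 against Control. Across mice Cort followed Sst with r = 0.626 (rho = 0.635, adjusted permutation p = 0.048 and 0.064) and Crhbp, which encodes the protein that binds corticotropin-releasing hormone, with r = 0.798 (rho = 0.809, adjusted permutation p = 0.0018 and 0.0041). Within genotypes the values were 0.654 and 0.684, and without the 2 farthest libraries 0.363 and 0.743.

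Npy encodes neuropeptide Y and lies on chromosome 6 from 49822710 to 49829507 on the plus strand. It was at 222, 318, 262 and 204 FPKM in Control and at 195, 211, 192 and 205 FPKM in APC cKO mice. The APC cKO libraries were close together, 201 ± 8.49 FPKM (SD, n = 4) against 251 ± 50.5 FPKM (SD, n = 4), and overlapped only the lowest Control library. Values in Bcat cOE mice were 304, 235, 255 and 232 FPKM and in APC/Bcat cKO mice 249, 249.5, 269 and 261 FPKM. All 4 APC cKO libraries were thus below all 8 libraries of the other lines. Of all genes, 5.49% were apart in APC cKO against APC/Bcat cKO and 5.20% in APC cKO against Bcat cOE. The share apart in both was not counted. For APC cKO the log2 fold change was -0.30 ± 0.11 against Control (limma adjusted p = 0.383, and -0.18 without Control replicate 2, whose 318 FPKM was the highest value), -0.36 ± 0.11 against APC/Bcat cKO (adjusted p = 0.274) and -0.35 ± 0.11 against Bcat cOE (adjusted p = 0.457). Bcat cOE and APC/Bcat cKO mice differed from Control by 0.042 and 0.054 on the log2 scale, with 95% confidence intervals from -0.19 to 0.28 and from -0.18 to 0.29.

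Cck encodes cholecystokinin, the most abundant of the 10, and lies on chromosome 9 from 121489824 to 121495694 on the minus strand. It was at 625, 654, 680.3 and 562 FPKM in Control and at 548, 609, 522 and 584 FPKM in APC cKO mice. Bcat cOE mice had 628, 614, 659 and 549 FPKM and APC/Bcat cKO mice 596, 675, 587 and 690.1 FPKM. All 4 APC cKO libraries were below the Control mean, but the groups overlapped. The log2 fold change was -0.15 ± 0.077 in APC cKO (limma adjusted p = 0.524), and the 95% confidence intervals ran from -0.20 to 0.12 in Bcat cOE and from -0.15 to 0.18 in APC/Bcat cKO mice. These were the narrowest intervals of the 10 genes.

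Crh encodes corticotropin-releasing hormone, carried in cortex by a part of the Vip and Sst interneurons, and lies on chromosome 3 from 19693401 to 19695396 on the minus strand. It was at 5.28, 3.91, 4.06 and 3.53 FPKM in Control and at 6.52, 4.41, 5.21 and 4.65 FPKM in APC cKO mice. In Bcat cOE mice the values were 4.39, 5.01, 3.39 and 5.10 FPKM and in APC/Bcat cKO mice 3.96, 4.89, 5.69 and 4.60 FPKM. The 4 groups overlapped, and the log2 fold changes against Control were 0.30 ± 0.16, 0.088 ± 0.16 and 0.19 ± 0.16 (limma adjusted p = 0.548, 0.974 and 0.601). Without APC cKO replicate 1 the APC cKO value was 0.19. Crhbp, which was at 18.5 ± 1.89 FPKM (SD, n = 4) in Control and 14.6 ± 2.69 FPKM (SD, n = 4) in APC cKO mice, had a log2 fold change of -0.35 ± 0.12 (limma adjusted p = 0.367).

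Penk encodes the precursor of the enkephalins, and in the striatum it belongs to the projection neurons that carry the dopamine receptor Drd2. It lies on chromosome 4 from 4133531 to 4138819 on the minus strand, and the start of the gene overlaps A830012C17Rik on the plus strand (4138321 to 4188703). The libraries were made with a kit that marks strand, but how strand was used when transcripts were quantified is not given in the sources used here. Penk was at 145, 67.0, 48.9 and 43.5 FPKM in Control and at 73.7, 92.8, 229 and 81.8 FPKM in APC cKO mice. Values in Bcat cOE mice were 58.9, 83.0, 46.4 and 127 FPKM and in APC/Bcat cKO mice 38.8, 64.9, 70.2 and 158 FPKM. In each genotype the highest Penk value was that of the library with the most striatal marker RNA. For APC cKO the log2 fold change against Control was 0.66 ± 0.47 with a 95% confidence interval from -0.34 to 1.65 (limma adjusted p = 0.659). Without the 4 libraries highest in striatal markers it was 0.66 ± 0.25 (limma adjusted p = 0.431), but it fell to 0.29 when APC cKO replicate 3 alone was left out and was 1.03 without Control replicate 1 alone. The log2 fold change was 0.12 in Bcat cOE and 0.11 in APC/Bcat cKO mice, both with intervals that reach beyond 1 on the log2 scale.

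Tac1 encodes the precursor of substance P, and Pdyn that of the dynorphins. In the striatum both belong to the projection neurons that carry the dopamine receptor Drd1. Tac1 lies on chromosome 6 from 7554879 to 7565834 on the plus strand. It was at 92.6, 36.4, 17.5 and 20.2 FPKM in Control and at 14.6, 44.9, 113 and 33.5 FPKM in APC cKO mice. Bcat cOE mice had 18.1, 49.6, 25.8 and 60.2 FPKM and APC/Bcat cKO mice 21.04, 19.4, 39.8 and 95.4 FPKM. The range within every genotype was wider than any difference between their means, and the highest library was again the one with the most striatal marker RNA. The log2 fold changes against Control were 0.26, 0.056 and 0.094, each with a standard error of 0.65 (limma adjusted p = 0.918, 0.999 and 0.968). Without the 4 libraries highest in striatal markers they were 0.26, 0.28 and 0.11.

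Pdyn lies on chromosome 2 from 129686565 to 129699844 on the minus strand, of which the locus given in the table spans only 129688000 to 129689868. It was at 24.4, 11.2, 7.12 and 8.86 FPKM in Control and at 6.92, 14.4, 27.1 and 11.2 FPKM in APC cKO mice. In Bcat cOE mice the values were 9.66, 12.3, 11.8 and 15.5 FPKM and in APC/Bcat cKO mice 9.80, 9.46, 13.9 and 21.2 FPKM. Its libraries stood in nearly the same order as those of Tac1, with the same library highest in each genotype. The log2 fold changes against Control were 0.20, 0.081 and 0.16, each with a standard error of 0.40 (limma adjusted p = 0.893, 0.985 and 0.887). Without the same 4 libraries they were 0.22, 0.33 and 0.29.

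Over the 16 libraries the striatal marker mean had a Pearson r of 0.961 with Tac1 (rho = 0.897), 0.931 with Pdyn (rho = 0.912) and 0.907 with Penk (rho = 0.891). The adjusted permutation p was 0.00021 for each, which comes from 1e-05, the smallest p that 100000 resamples can give. After removal of genotype means r was 0.980, 0.952 and 0.898, and without the 2 libraries farthest from the median it was 0.958, 0.912 and 0.860. Among themselves r was 0.964 for Tac1 and Pdyn (rho = 0.968), 0.883 for Penk and Tac1 (rho = 0.794) and 0.851 for Penk and Pdyn (rho = 0.771), with an adjusted permutation p of at most 0.0076. The other 7 genes had values between -0.270 and 0.382 with the same marker mean. Of the 10 marker genes 0 were called against Control in any line, and 0 had an unadjusted limma p under 0.05. Their median log2 fold change was 0.73 in APC cKO, 0.084 in Bcat cOE and 0.18 in APC/Bcat cKO mice.

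**Figure D4:**
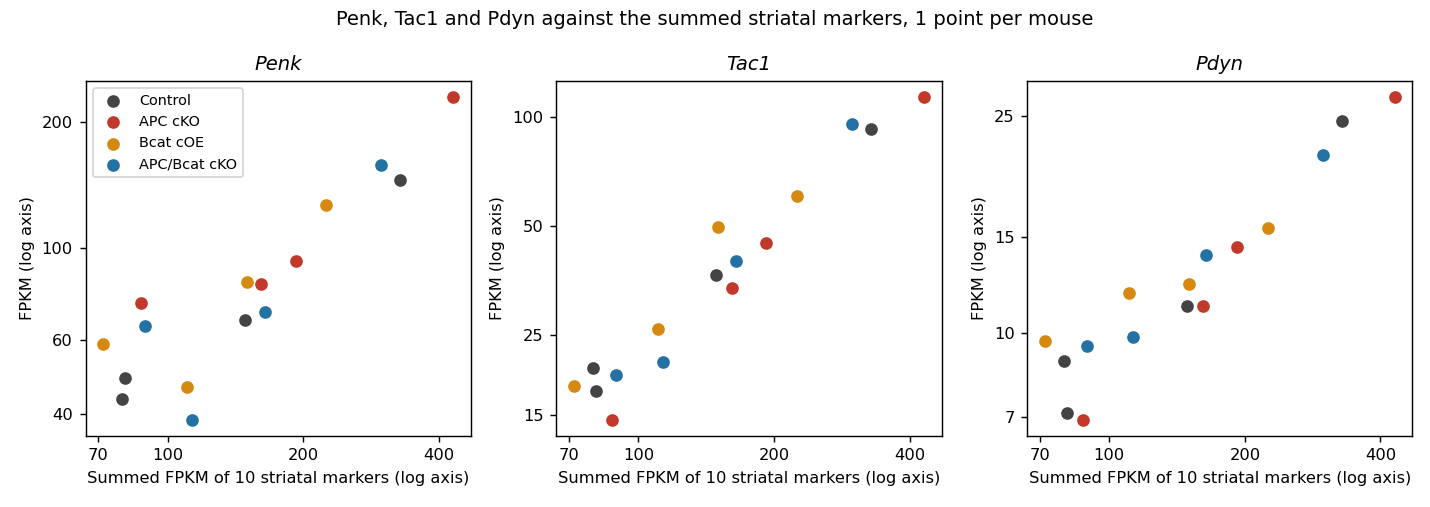
FPKM of Penk, Tac1 and Pdyn (vertical log axes) against the summed FPKM of 10 striatal markers (horizontal log axis), with 1 point per mouse coloured by genotype. The points follow one band in all 4 genotypes, and the library at the upper right of each panel is APC cKO replicate 3, with a marker sum of 431 FPKM.

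The 10 genes fell into blocks when their correlations over the 16 libraries were laid side by side. Beside Penk, Tac1 and Pdyn, Npy was correlated with Cck (r = 0.672, rho = 0.729, adjusted permutation p = 0.036 and 0.023) and with Cort (r = 0.676, rho = 0.641, adjusted permutation p = 0.034 and 0.064). Within genotypes r was 0.510 for Cck and Npy and 0.484 for Npy and Cort, and without the 2 farthest libraries it was 0.723 and 0.449. Tac2 ran against Sst (r = -0.619, rho = -0.632, adjusted permutation p = 0.048 and 0.066), with -0.424 within genotypes and -0.626 without the 2 farthest libraries. The genes whose pattern was most like that of each neuropeptide gene, among tested genes that averaged 1 FPKM or more, were named by Pearson r over the 16 libraries, without a test. For Tac1 these included Gng7 (0.976) and Prkch (0.967), and for Pdyn Gng7 (0.966) and Tac1 (0.964). For Penk they were Tmem158 (0.947), Tmem90a (0.937) and Pde1b (0.933). For Sst they were Lhx6 (0.908), Nckipsd (0.869) and Plbd2 (0.856), and for Tac2 Tekt1 (0.858), the serotonin receptor gene Htr3a (0.852) and Wif1 (0.842). For Cort they were 6430562O15Rik (0.844), Crhbp (0.798) and Rell2 (0.793). The highest r was 0.869 for Cck (with Gde1), 0.824 for Npy (with B830017H08Rik), 0.873 for Vip (with 6030446N20Rik) and 0.830 for Crh (with Lgi4).

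**Figure D5:**
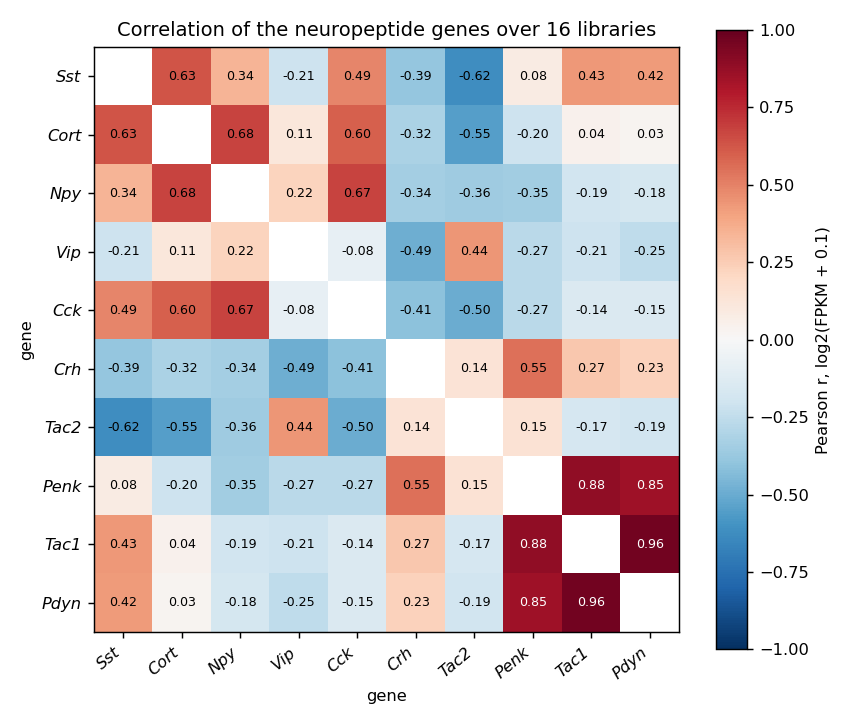
Pearson r between the neuropeptide genes (both axes) over 16 libraries on log2(FPKM + 0.1), from blue (-1) to red (1). The block of Penk, Tac1 and Pdyn holds values of 0.851 to 0.964, and Tac2 is blue against Sst and Cort.

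The receptors of these peptides were present at low to moderate levels. Of 21 receptor genes 15 passed the filter. The highest was Adcyap1r1 (34.9 FPKM over the 16 libraries), listed as a relative of the VIP receptors, whose own genes Vipr1 and Vipr2 were at 6.25 and 1.65 FPKM. Next was Cckbr (25.4 FPKM), the main cholecystokinin receptor of cortex. No receptor gene was called against Control in any line. At an unadjusted limma p under 0.05 there were 2 in APC cKO mice, 1 higher and 1 lower (10% of all genes). Bcat cOE mice had 2, both lower (5.07% of all genes), and APC/Bcat cKO mice 1, lower (14.2% of all genes). In APC cKO mice these were Npy2r, at a log2 fold change of 0.50 (limma adjusted p = 0.435), and Cckbr, at -0.29 (adjusted p = 0.468). In Bcat cOE mice they were Sstr2, at -0.51, and the delta opioid receptor gene Oprd1, at -0.37 (limma adjusted p = 0.946 for both). Oprd1 was also the 1 in APC/Bcat cKO mice, at -0.57 ± 0.16 (limma adjusted p = 0.212). The median over the 15 receptors was -0.0057, -0.054 and 0.028 in the 3 lines.

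The genes of precursor processing and dense-core vesicles were among the most abundant, with Cpe, which encodes carboxypeptidase E, at 1168 FPKM over the 16 libraries. All 13 passed the filter and 0 were called against Control in any line. At an unadjusted limma p under 0.05 there were 2 lower in APC cKO (10% of all genes) and 1 lower in Bcat cOE (5.07%). In APC/Bcat cKO mice 1 was higher and 1 lower at that level (14.2% of all genes). Scg3, which encodes a granin that binds the vesicle membrane, had log2 fold changes of -0.15 in APC cKO (limma adjusted p = 0.330) and -0.11 in Bcat cOE mice (adjusted p = 0.946). Cadps, needed for priming of these vesicles, had -0.22 in APC cKO (limma adjusted p = 0.451) and -0.25 in APC/Bcat cKO mice (adjusted p = 0.283). The median over the 13 genes was 0.017, -0.048 and 0.020.

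Of 34 other neuropeptide genes 20 passed the filter and 0 were called against Control in any line. Edn3 had a log2 fold change of -0.48 ± 0.13 in APC cKO mice (limma adjusted p = 0.310) and Grp, which encodes gastrin-releasing peptide, -0.47 ± 0.17 (adjusted p = 0.371). Their median was 0.14 in APC cKO, 0.21 in Bcat cOE and 0.21 in APC/Bcat cKO mice, and 12, 18 and 14 of the 20 had higher values than Control. Of 10 early activity genes, which neuronal firing induces, 0 were called. In APC cKO mice 9 of the 10 were higher and 5 had an unadjusted limma p under 0.05 (10% of all genes), with a median log2 fold change of 0.64. In APC/Bcat cKO mice 8 were higher, 2 of them at that level (14.2% of all genes), with a median of 0.39, and in Bcat cOE mice 5 were higher, 0 at that level (5.07%), with a median of -0.0048. Fosb was at 0.62 ± 0.20 (limma adjusted p = 0.326) and Junb at 0.75 ± 0.27 (adjusted p = 0.371). Npy had an r of -0.539 with the mean of the early activity genes (rho = -0.421, adjusted permutation p = 0.11 and 0.27), and -0.336 without the 2 farthest libraries.

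Markers of the cells that carry the peptides were not called either. Of 11 genes of GABAergic neurons in general, 5 tested of 6 Sst interneuron markers other than the peptides, 10 markers of Vip, Lamp5 and Cck interneurons, and Pvalb, 0 were called against Control in any line. The median log2 fold change of the Sst interneuron markers was -0.11 in APC cKO, -0.042 in Bcat cOE and -0.13 in APC/Bcat cKO mice, and that of the Vip, Lamp5 and Cck interneuron markers 0.025, -0.0010 and -0.21. In APC/Bcat cKO mice, in which Vip was lowest, 7 of those 10 markers were lower than Control. At an unadjusted limma p under 0.05 there were 2 lower and 1 higher (14.2% of all genes). In APC cKO and in Bcat cOE mice 5 of the 10 were lower, 1 of them at that level (10% and 5.07% of all genes). In both lines that marker was Lamp5, which was lower in all 3 lines (log2 fold change -0.44 in APC cKO, -0.28 in Bcat cOE and -0.27 in APC/Bcat cKO mice). Pvalb, which encodes the calcium-binding protein parvalbumin, was at 64.8 ± 3.20 FPKM (SD, n = 4) in Control and 38.2 ± 12.2 FPKM (SD, n = 4) in APC cKO mice, and its log2 fold changes were -0.81 ± 0.19 in APC cKO, -0.53 ± 0.19 in Bcat cOE and -0.15 ± 0.19 in APC/Bcat cKO mice (limma adjusted p = 0.209, 0.946 and 0.728). The unadjusted limma p of Pvalb was 0.00048, 0.011 and 0.42 in these lines. The paper counts Pvalb among its dysregulated genes. By qPCR and immunoblot it reports less Pvalb mRNA and protein in both lines with raised β-catenin, and normal levels in APC/Bcat cKO mice. The other lists, of excitatory neurons, astrocytes, oligodendrocytes, microglia, endothelium, choroid plexus and ependyma, and hypothalamus, also held 0 called genes against Control. Of 5 oligodendrocyte markers all had lower values in APC cKO mice, 4 at an unadjusted limma p under 0.05 (10% of all genes). All had higher values in APC/Bcat cKO mice, 2 at that level (14.2% of all genes). Their median log2 fold changes were -0.27 in APC cKO and 0.21 in APC/Bcat cKO mice. Of 5 astrocyte markers all had higher values in APC cKO and Bcat cOE mice, 2 and 1 at that level (10% and 5.07% of all genes). Of 10 excitatory neuron markers 9 had lower values in APC cKO and 8 in Bcat cOE mice. At that level there were 1 and 3, beside the same shares of all genes. The part these markers played in the peptide values was not tested. The defining hypothalamic peptides Avp, Oxt, Pmch, Hcrt and Agrp together summed to 0.335 to 6.29 FPKM per library.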

How the data were processed

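The authors prepared strand-marking TruSeq mRNA libraries, read them as 100-base pairs, mapped them to mm10 with TopHat2 2.0.10 and made normalized values with Cufflinks2 and Cuffdiff 2.1.1, per the paper's methods and the submitters' processing notes. The deposited values are log2 values, read as log2(FPKM + 1): base and offset are not stated, but powers of 2 less 1 sum to 452831 to 496015 per library, while a natural log would give 4699269 to 5747039. The table holds no read counts, so depth is unknown, and 5726 to 6649 genes were listed at 0 per library.

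Libraries were grouped by the genotype in their labels and numbered in accession order. FPKM were tested with limma 3.58.1 in R 4.3.3 (lmFit, contrasts.fit, eBayes with trend) on log2(FPKM + 0.1), which understates changes of low genes, in 1 model of all 16 libraries with 12 residual degrees of freedom. Genes averaging 0.5 FPKM or more entered, with Benjamini-Hochberg adjustment over all 13978 and calls at an adjusted p under 0.05. The fit was tested on simulated data. Two-sided permutation tests of correlations on log2(FPKM + 0.1) used 100000 resamples, adjusted over 125 pairs. Drd1, Syndig1l, Ndnf and Lamp5 were found under older symbols. Gene coordinates are those of GENCODE.

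The neuropeptide genes, lists, correlations and tests were chosen with earlier results of these data known. Named genes are all 10 neuropeptide genes, each list's called genes or else the 2 with the smallest p (of which only some are given), and the 3 genes most correlated with each neuropeptide gene (for some only a part is given, and 1 gene is not reported here). Sex was read from the data. Alternatives were another pseudocount, filters, scalings, only the groups compared, sex or a block, and libraries left out. Leaving out 4 libraries by marker level, and the column-number set as a block, were chosen after seeing the data.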

Additional observations from a re-analysis of the deposited data

Results flagged for a closer look

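Vip in APC/Bcat cKO mice stood out because 1 library, replicate 1 at 48.9 FPKM, lay far from the other 3 at 41.3 to 42.1 FPKM, with a gap of 0.8913 of the range of the group. Penk in APC cKO mice did so because replicate 3, at 229 FPKM, lay far above the other 3 at 73.7 to 92.8 FPKM, with a gap of 0.8771 of the range. That library also had the highest striatal marker sum of all, 431 FPKM, and without it the log2 fold change of Penk in APC cKO mice was 0.2887 in place of 0.6577. Cort in Control mice did so because replicate 2, at 12.9 FPKM, lay far above the other 3 at 5.66 to 6.86 FPKM, with a gap of 0.8347. Of 40 groups of 4 libraries 3 were past Dixon's 95% critical value, and chance gives about 1 in 20, or 2.0 groups.

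Npy stood out because every APC cKO library was below and every APC/Bcat cKO library above the Control mean on the log2 scale. For APC/Bcat cKO mice this depended on the scale. Their replicates 1 and 2, at 249.38 and 249.53 FPKM, lay below the Control mean of 251.29 FPKM. The log2 fold change of APC/Bcat cKO mice against Control was 0.054 ± 0.11 (standard error), which does not show a rise. The share of all genes that met the same rule is not given here. The difference of APC cKO from APC/Bcat cKO mice was -0.3572 on the log2 scale (limma adjusted p = 0.274). Over the alternatives the adjusted p ran from 0.0796 to 0.771.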

How the results depend on the processing

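The count of neuropeptide genes called was 0 in every comparison, and it stayed at 0 with another pseudocount, other filters and scalings and either block. What the numbers in the sample titles mark is not stated in the sources used here. Over 21 pairs with the same number the correlation of deviations ran from -0.218 to 0.322 (median -0.069), beside a median of 0.005 over 75 other pairs. These values cannot show whether the numbers pair the mice. With the title number as a replicate block the log2 fold change of Sst in APC cKO mice was -0.3566. At an unadjusted p under 0.05 the counts were 4, 0 and 1 for APC cKO, Bcat cOE and APC/Bcat cKO against Control, 4 for APC cKO and 2 for Bcat cOE against APC/Bcat cKO, 3 for APC cKO against Bcat cOE, 2 for the lines with raised β-catenin against the other groups and 3 for any difference. At an adjusted p under 0.05 the calls gained were all of Vip. Without the libraries highest in striatal markers there was 1 call in APC cKO against Control, 1 in APC/Bcat cKO against Control and 1 for any difference. Sex as a covariate gave 1 in APC/Bcat cKO against Control, and a fit of only the groups compared gave 1 in Bcat cOE against APC/Bcat cKO. With single libraries left out, the counts ranged from 0 to 1 for APC/Bcat cKO against Control, Bcat cOE against APC/Bcat cKO and any difference, the 1 each time without Control replicate 1. The cause was not tested.

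Of the single log2 fold changes under the alternatives 997 kept direction and call, 6 gained a call, all of Vip, and 50 changed sign, none of which was of a called gene. Without the libraries highest in striatal markers Cck became 0.007819 and Tac2 -0.03521 in Bcat cOE, and Cck became -0.02783 and Npy -0.005391 in APC/Bcat cKO mice. Without those highest in Dlx genes, Npy was -0.01618, Pdyn -0.03615 and Cort -0.04552 in Bcat cOE mice. With sex as a covariate Cort was -0.06635 in Bcat cOE mice, and under quantile normalization Cck was -0.07854 and Npy -0.001427 in APC/Bcat cKO mice. With single libraries left out, the APC cKO values ranged from -0.2386 to 0.7586 for Tac1 and from -0.1449 to 0.5603 for Pdyn. In Bcat cOE mice they ranged from -0.09462 to 0.01096 for Cck, -0.05123 to 0.1623 for Npy, -0.1182 to 0.02107 for Vip, -0.1441 to 0.4872 for Penk, -0.2494 to 0.5511 for Tac1, -0.1454 to 0.4429 for Pdyn and -0.1387 to 0.275 for Cort. In APC/Bcat cKO mice they ranged from -0.03865 to 0.05293 for Cck, -0.03982 to 0.1737 for Npy, -0.265 to 0.4768 for Penk, -0.3831 to 0.5888 for Tac1, -0.07561 to 0.5248 for Pdyn and -0.1621 to 0.2306 for Cort. With single libraries left out the values of Sst, which kept their direction, ranged from -0.4842 to -0.07327 in APC cKO and from -0.4044 to -0.1426 in Bcat cOE mice. The number of mice limits precision, and the intervals of Penk, Tac1 and Pdyn hold changes of 1 on the log2 scale in at least 1 line each. Depth per library is unknown.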
